A study of Mus musculus with 6 samples.

Results

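Claudins and the other genes of the epithelial tight junction were examined in the caput of the mouse epididymis, the proximal end of the tubule where sperm mature. The genes were chosen by symbol: all rows named as claudins, as Tjp or as Marveld genes, together with Ocln, Cgn, Cgnl1, F11r, Jam2, Jam3, Pard3, Pard6b, Magi1, Magi3, Ildr1 and Lsr. This gave 50 of the 24346 genes in the deposited table, of which 32 were claudins. RNA came from 8-week-old mice in 6 RNA sequencing libraries, 3 from wild-type animals and 3 from animals with the genotype Adgrg2-/Y, called KO here. Adgrg2 encodes an adhesion receptor, made from the X chromosome in male reproductive ducts, and the genotypes differ at this gene. Strain, the construction of the allele and the source animal of each library are not named in the labels. The p-values therefore describe variation among the sequenced libraries, and some of it may be technical.

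Tight junctions close the gap between neighbouring epithelial cells. Claudins are the membrane proteins that span this gap: some seal it and others form channels for ions and water. Occludin and the MARVEL proteins accompany them, angulins organise the corners where cells meet, junctional adhesion molecules connect to the polarity proteins, and ZO proteins (Tjp genes), cingulins and MAGI proteins link the complex to the cell interior. In the epididymis these junctions form the blood-epididymis barrier, which keeps the fluid around the sperm apart from the blood.

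The normalized counts of a library summed to 18136864 to 21455984. Adgrg2 was at 833 ± 21.9 FPKM in the wild-type libraries against 354 ± 48.5 FPKM in the KO libraries (SD, n = 3), so it was lower but present in all KO libraries. KO replicate 3 stood apart from the other libraries. Its mean correlation with the wild-type libraries across genes was 0.894, against 0.971 and 0.960 for KO replicates 1 and 2 and 0.991 to 0.992 among the wild-type libraries. The FPKM of all its genes summed to 931769, against 732542 and 645173 in KO replicates 1 and 2 and 691563 to 714360 in wild-type. It had 16470 genes above 0, against 17256 and 17361 in KO replicates 1 and 2 and 17513 to 17610 in wild-type. The FPKM levels given below are not rescaled for these totals. The median SD of a gene was 0.0669 on the log2(FPKM + 1) scale in wild-type, 0.284 in the KO and 0.145 in the KO without replicate 3. Most results below therefore give the KO libraries singly. All 8 luminal epithelial markers were detected, and their summed level was 1046 to 1118 FPKM in the wild-type libraries against 1393, 1202 and 1911 FPKM in KO replicates 1, 2 and 3. Keratins and Epcam make up most of that sum, and not all of its markers were higher: Aqp9, at 42.8 to 45.3 FPKM in wild-type, was at 35.5, 9.08 and 7.94 FPKM, and Pax8, at 81.1 to 83.3 FPKM, was at 79.8, 49.6 and 46.7 FPKM.

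Of the 50 genes, 31 averaged 1 FPKM or more across the 6 libraries and were tested: 13 of the 32 claudins and all 18 others. The 19 claudins below that level are described at the end of the claudin section. Two-sided tests were made with limma on log2(FPKM + 1), adjusted by the Benjamini-Hochberg method over all 12799 tested genes, with a threshold of 0.05. No tight junction gene passed the threshold, against 32 of all tested genes (0.25% of them, with 0.0781% higher and 0.172% lower in the KO). At an unadjusted p under 0.05 there were 7 of the 31, namely Cldn10, Cldn12 and Cldn16 with lower means in the KO and Cgn, Cgnl1, Marveld3 and Tjp3 with higher means, against 17.5% of all tested genes (9.46% higher and 8.08% lower in the KO). The genotypes did not overlap for 13 of the 31 (41.9%), against 32.9% of all tested genes. The KO was higher in 6 of the 13 (16.8% of all tested genes) and lower in 7 (16.1%). Cldn16, counted in both groups of genes, reached 1 FPKM only through wild-type, so for it a difference was built into the choice. The median log2 change was -0.06 for the tight junction genes and 0.01 for all tested genes.

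Leaving out KO replicate 3, 3 genes passed: Cldn10, Cgnl1 and Tjp3, against 4.93% of all tested genes. Leaving out KO replicate 1, Cldn10 passed alone (4.23%), and it did so again when each genotype was given its own variance weight (0.523%). With all 6 libraries, Cldn10 had the largest log2 change in size of the 31 genes, and Tjp3 the largest positive one.

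**Figure D1:**
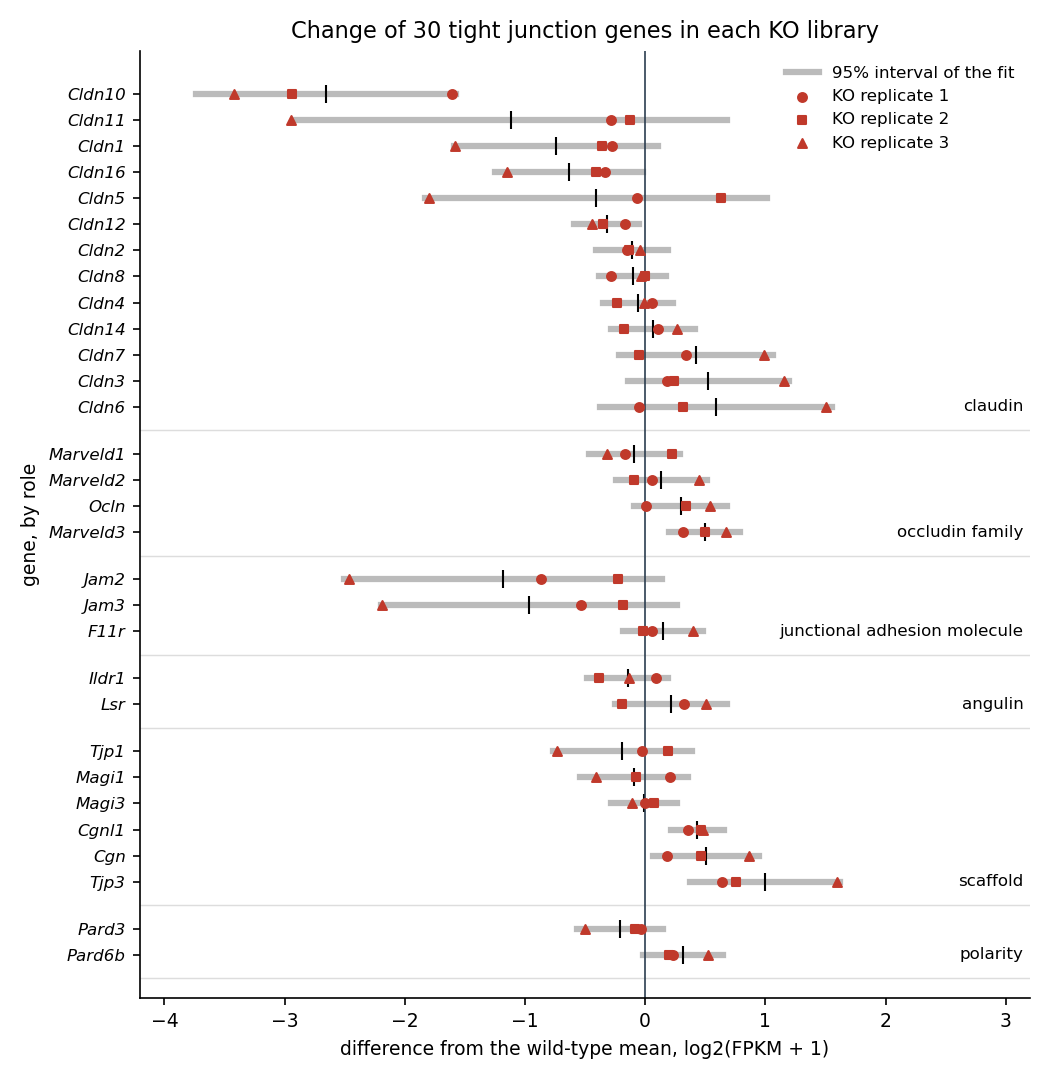
Difference of each KO library from the wild-type mean on the log2(FPKM + 1) scale (x axis) for 30 of the 31 tested genes (y axis, by role). Symbols are KO libraries, black ticks the fitted change and grey bars its 95% interval; Cldn10 lies lowest, at -1.61, -2.94 and -3.42 in KO replicates 1, 2 and 3, and the lowest symbol of Cldn11, Cldn1, Cldn5, Jam2 and Jam3 is KO replicate 3.

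The 5 most abundant of the 50 genes were claudins. In wild-type the leading claudin was Cldn2, which forms a channel for small cations and water, at 426, 417 and 430.1 FPKM. It was followed by Cldn3, a sealing claudin, at 186, 189.8 and 189.6 FPKM. Next came Cldn10, a channel former, at 169, 156 and 157 FPKM. Behind them stood Cldn4 at 129.9 ± 3.46 FPKM, Cldn7 at 105 ± 0.61 FPKM and Cldn14 at 58.2 ± 4.70 FPKM (SD, n = 3). Then came Cldn1, a sealing claudin of the skin and many other epithelia, at 38.1 ± 1.51 FPKM, and Cldn8 at 31.3 ± 1.25 FPKM. Each of these 8 lay above the next in all wild-type libraries. Cldn11 and Cldn12, at 16.4 ± 1.33 and 14.6 ± 0.91 FPKM, overlapped and cannot be ordered. Cldn5, the claudin of blood vessels, was at 8.46 ± 0.20 FPKM, Cldn16 at 1.71 ± 0.23 FPKM and Cldn6 at 0.96 ± 0.016 FPKM. FPKM is per length of transcript, so levels can be compared between genes as far as the lengths used are right. Those lengths are not known here, and the order above rests on them.

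**Figure D2:**
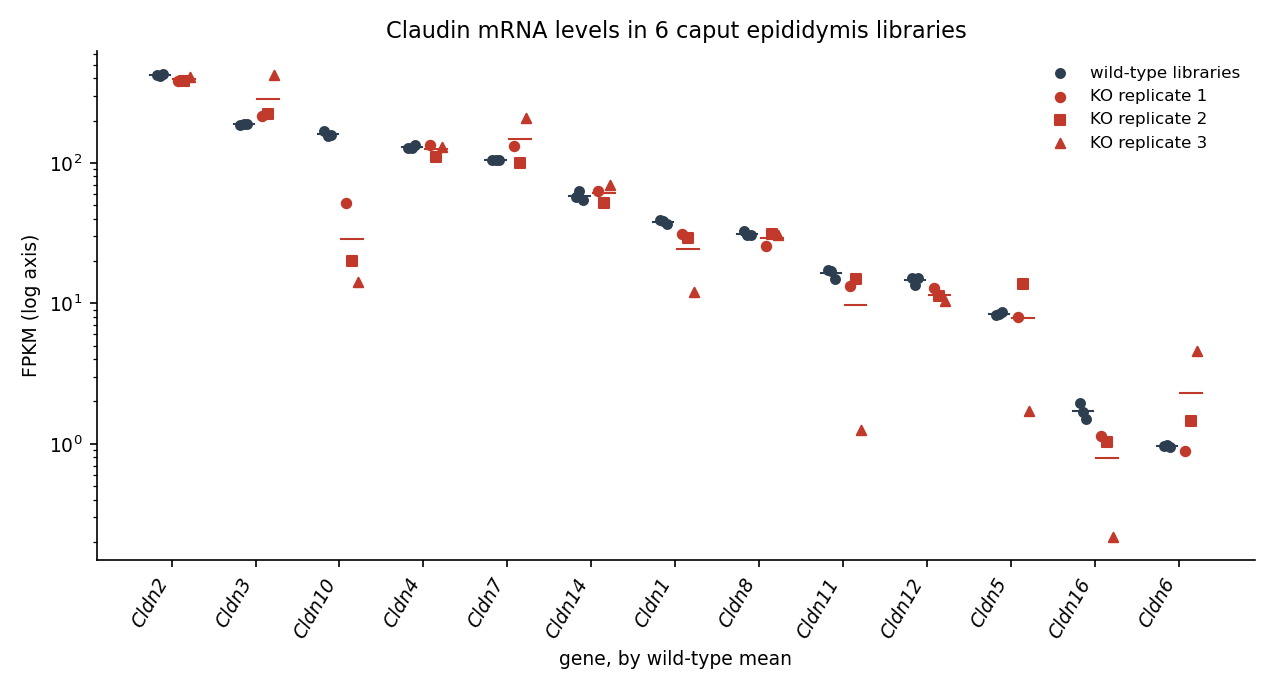
FPKM on a log axis (y) of the 13 tested claudins (x, by wild-type mean) in each library, with a horizontal line at the mean of each genotype (n = 3). Cldn2 has the highest mean in both genotypes, and the Cldn10 values of the KO, 51.9, 20.1 and 14.1 FPKM, lie far below those of wild-type. KO replicate 3 is the lowest library for Cldn10, Cldn1, Cldn11, Cldn12, Cldn5 and Cldn16 and the highest for Cldn3, Cldn7, Cldn14 and Cldn6.

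Cldn10 was the third claudin in wild-type and ranked 6, 8 and 7 among the 13 tested claudins in KO replicates 1, 2 and 3. Its levels were 169, 156 and 157 FPKM in the wild-type libraries against 51.9, 20.1 and 14.1 FPKM in the KO libraries. All KO libraries lay far below all wild-type libraries, and KO replicate 1 was the nearest. The KO mean was 5.60-fold lower (161 ± 7.37 against 28.7 ± 20.3 FPKM, SD, n = 3). The log2 change was -2.66 ± 0.45 (SE), with a 95% interval of -3.74 to -1.58 and an adjusted p of 0.0962 by limma. Leaving out KO replicate 3 gave an adjusted p of 0.0423, leaving out KO replicate 1 gave 0.00488, a weight per genotype gave 0.026, and the highest of 15 alternatives was 0.471. Cldn10 had 2157 to 2343 normalized counts in the wild-type libraries against 719.5, 278 and 195 in KO replicates 1, 2 and 3.

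The summed markers of the initial segment, where the caput begins, were lower in all KO libraries, as Cldn10 was. All 8 of these markers were detected, and their summed level was 30864 to 32707 FPKM in the wild-type libraries against 12651, 4630 and 1492 FPKM in KO replicates 1, 2 and 3. Relative to the wild-type mean this was 0.40, 0.15 and 0.047, and Cldn10 was at 0.32, 0.13 and 0.088. In both, KO replicate 1 was the highest and KO replicate 3 the lowest of the KO libraries. Spermatid and sperm markers had the same order, at 0.18, 0.075 and 0.011. Most of the summed initial segment level was Lcn8 and Lcn9, and its markers differed in KO replicate 1. Ros1 was at 71.8 FPKM there against 77.0 to 77.9 FPKM in wild-type, and Cst8 at 244.9 against 2301 to 2373 FPKM. Adam28, at 1468 FPKM there, lay inside the wild-type range of 1457 to 1560 FPKM. The median log2 difference over the 8 initial segment markers was -0.65, -2.42 and -3.65 in KO replicates 1, 2 and 3. For Cldn10 the log2 difference was -1.61, -2.94 and -3.42. In bulk RNA, fewer cells of a type and less RNA per cell cannot be told apart. The part of the initial segment or of sperm in the Cldn10 difference was not tested.

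Cldn10 is known to be transcribed from alternative starts that give proteins with different first extracellular loops, an anion-selective and a cation-selective channel. The deposited value is for the whole gene (NCBI gene 58187, chromosome 14, 118787871 to 118874525, mm10) and does not separate them. RefSeq (build GRCm38.p6) holds promoter windows of 300 bases, 250 before and 50 after a start, for 39 of the 50 genes. It gives both starts of Cldn10, on the plus strand, shown here because the gene carries the largest difference. The motifs searched, on both strands, were the Sp1 box GGGCGG, the E-box CACCTG, the TATA box TATAAA and the PEA3 core AGGAAG, and matches are in capitals.
Cldn10 upstream start, chr14:118787621-118787920: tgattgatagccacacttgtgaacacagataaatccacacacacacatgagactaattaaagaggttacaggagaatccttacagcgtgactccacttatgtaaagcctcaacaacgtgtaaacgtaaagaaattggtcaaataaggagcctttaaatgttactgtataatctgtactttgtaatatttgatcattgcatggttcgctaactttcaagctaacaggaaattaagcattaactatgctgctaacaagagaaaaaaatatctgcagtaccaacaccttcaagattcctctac
Cldn10 downstream start, chr14:118854700-118854999: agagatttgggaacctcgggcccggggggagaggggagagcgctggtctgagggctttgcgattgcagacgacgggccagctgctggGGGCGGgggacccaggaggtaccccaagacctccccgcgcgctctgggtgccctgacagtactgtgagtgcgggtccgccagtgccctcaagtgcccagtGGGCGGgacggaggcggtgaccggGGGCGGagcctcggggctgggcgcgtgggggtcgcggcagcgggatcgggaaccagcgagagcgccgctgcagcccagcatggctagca
The upstream window had 36% G and C and no match to any of these motifs. The downstream window had 72% G and C and 3 Sp1 boxes. The median window of the 32851 in the table had 52.7% G and C, and an Sp1 box was found in 35.7% of them, an E-box in 20.2%, a TATA box in 13.6% and a PEA3 core in 35.35%.

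Cldn2 was the leading claudin in KO replicates 1 and 2 as well, and came after Cldn3 in KO replicate 3. It was at 426, 417 and 430.1 FPKM in the wild-type libraries against 383, 385 and 411 FPKM in the KO libraries. The KO libraries were all slightly lower, and the genotypes did not overlap. The log2 change was -0.11 ± 0.12 (SE), with a 95% interval of -0.41 to 0.19 and an adjusted p of 0.629 by limma. Behind each value stood 20433 to 22947 normalized counts. Its promoter window, on the plus strand of chromosome X, had a TATA box and a pair of overlapping PEA3 cores and is shown as that of the most abundant claudin.
Cldn2, chrX:139800558-139800857: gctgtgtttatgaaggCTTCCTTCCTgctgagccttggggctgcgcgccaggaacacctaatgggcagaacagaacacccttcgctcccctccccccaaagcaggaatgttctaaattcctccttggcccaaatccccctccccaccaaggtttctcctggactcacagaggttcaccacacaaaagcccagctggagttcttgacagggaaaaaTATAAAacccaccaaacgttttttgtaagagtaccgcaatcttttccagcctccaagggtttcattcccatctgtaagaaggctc

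Cldn3 and Cldn4 are neighbours on chromosome 5, 39279 bases apart with no protein-coding gene between them, and their levels differed in pattern. Cldn3 was at 186, 189.8 and 189.6 FPKM in the wild-type libraries against 214, 223 and 422 FPKM in the KO libraries. Its KO libraries all lay above wild-type, and KO replicate 3, at 2.24 times the wild-type mean, was the highest claudin value of that library. Cldn4, which can seal junctions or conduct chloride, was at 127, 129 and 134 FPKM in the wild-type libraries against 135, 110.2 and 129 FPKM in the KO libraries. Its genotypes overlapped, with KO replicate 2 lowest and KO replicate 1 highest. The log2 change was 0.53 ± 0.28 (SE, 95% interval -0.14 to 1.20, adjusted p = 0.359 by limma) for Cldn3 and -0.06 ± 0.12 (-0.35 to 0.23, adjusted p = 0.778) for Cldn4. Without KO replicate 3 the log2 change of Cldn3 was 0.21. The promoter windows of the pair are shown for comparison.
Cldn3, plus strand, chr5:134985964-134986263: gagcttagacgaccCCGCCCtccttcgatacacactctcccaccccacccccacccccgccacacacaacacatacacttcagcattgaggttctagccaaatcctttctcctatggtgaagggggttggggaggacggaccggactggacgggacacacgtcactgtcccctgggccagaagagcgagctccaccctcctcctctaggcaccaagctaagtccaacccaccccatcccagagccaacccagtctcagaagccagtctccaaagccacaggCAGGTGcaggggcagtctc
Cldn4, minus strand, chr5:134946885-134947184: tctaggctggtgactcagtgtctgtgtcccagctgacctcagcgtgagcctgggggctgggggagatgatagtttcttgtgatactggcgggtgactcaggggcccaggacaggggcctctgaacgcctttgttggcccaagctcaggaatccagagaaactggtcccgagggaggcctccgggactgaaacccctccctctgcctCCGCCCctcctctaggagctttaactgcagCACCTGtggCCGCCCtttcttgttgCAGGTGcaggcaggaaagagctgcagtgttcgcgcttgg
The Cldn3 window had 1 Sp1 box and 1 E-box, and the Cldn4 window 2 of each. The E-box is the sequence that the Snail and ZEB repressors are known to bind. Over all windows of these genes it was found in 18 of 52 (34.6%), against 20.2% of the windows in the table. The Sp1 box was found in 28 of the 52 (53.85%, against 35.7%). The TATA box was found in 5 (9.62%, against 13.6%) and the PEA3 core in 14 (26.9%, against 35.35%). Some genes have more than 1 window, some of them overlapping, and these differences were not tested.

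Cldn7, a claudin also found along the lateral cell border, was at 105, 104 and 104 FPKM in the wild-type libraries against 132, 101 and 208 FPKM in the KO libraries. KO replicate 2 was just below wild-type and KO replicate 3 at 1.99 times the wild-type mean. The log2 change was 0.42 ± 0.26 (SE, adjusted p = 0.42 by limma), and 0.14 without KO replicate 3. The luminal epithelial markers stood at 1.30, 1.12 and 1.78 times wild-type in KO replicates 1, 2 and 3, and markers of narrow and clear cells at 1.06, 0.92 and 1.77 times, with 1 of 7 (Foxi2) at 0 in all libraries. These are ratios of sums, and Aqp9 and Pax8 of the luminal list went the other way, as given above. In the narrow and clear cell list, 5 of 7 markers averaged 1 FPKM or more, and they differed in direction. Atp6v0d2 was at 41.6 to 44.5 FPKM in wild-type against 25.7, 20.5 and 39.0 FPKM in KO replicates 1, 2 and 3. Foxi1, at 27.8 to 30.6 FPKM in wild-type, was at 40.3, 48.1 and 89.2 FPKM. Atp6v1b1 and Atp6v1g3 were also higher in all KO libraries, and Car2 went both ways. The median log2 difference of these 5 markers was 0.39, 0.24 and 1.18. Relative to wild-type, Cldn3 was at 1.14, 1.18 and 2.24, and Cldn7 at 1.27, 0.96 and 1.99. The part of these markers in both differences was not tested.

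The genotypes overlapped for Cldn14 and Cldn8. Cldn14, a claudin of the inner ear and kidney, was at 57.2, 63.4 and 54.2 FPKM in the wild-type libraries against 62.6, 51.4 and 70.0 FPKM in the KO libraries, with KO libraries on both sides of wild-type. Cldn8, a kidney and gut claudin, was at 32.8, 30.5 and 30.7 FPKM against 25.5, 31.4 and 30.6 FPKM, with only KO replicate 1 outside the wild-type range on the low side. The 95% interval of the log2 change was -0.29 to 0.42 for Cldn14, whose fitted change turned from 0.06 to -0.03 without KO replicate 3, and -0.38 to 0.17 for Cldn8. Cldn12, an atypical claudin without the usual C-terminal motif, was at 15.1, 13.6 and 15.2 FPKM in the wild-type libraries against 12.9, 11.2 and 10.46 FPKM in the KO libraries. All its KO libraries were lower, with a log2 change of -0.32 ± 0.11 (SE, 95% interval -0.59 to -0.05, adjusted p = 0.237 by limma).

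Cldn1, Cldn11 and Cldn5 were lowest in KO replicate 3. Cldn1 was at 39.4, 38.4 and 36.5 FPKM in the wild-type libraries against 31.3, 29.4 and 12.04 FPKM in the KO libraries, without overlap (log2 change -0.74 ± 0.35, SE, adjusted p = 0.329 by limma). Cldn11, which forms the barrier of Sertoli cells and of myelin, was at 17.2, 17.1 and 14.8 FPKM against 13.2, 14.9 and 1.25 FPKM. KO replicates 1 and 2 were near the lowest wild-type library and KO replicate 3 was at 0.077 of the wild-type mean. Cldn5 was at 8.26, 8.46 and 8.65 FPKM against 8.03, 13.7 and 1.72 FPKM, with KO replicate 2 above and KO replicate 3 below wild-type. Without KO replicate 3 the log2 change was -0.32 for Cldn1, -0.21 for Cldn11 and 0.28 for Cldn5, a turn of direction for Cldn5 from -0.41.

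Markers of 4 other cell types were also lowest in KO replicate 3. The 8 basal cell markers summed to 173 to 181 FPKM in the wild-type libraries against 188, 240.1 and 29.8 FPKM in KO replicates 1, 2 and 3. The 8 vascular endothelial markers summed to 128 to 133 FPKM in the wild-type libraries against 149, 85.6 and 44.0 FPKM. Among them Pecam1, a defining marker, was at 12.8 to 13.6 FPKM in the wild-type libraries against 13.5, 12.9 and 0.592 FPKM in the KO libraries. The 7 fibroblast markers summed to 469.7 to 539 FPKM in the wild-type libraries against 189 (KO replicate 1), 418 (KO replicate 2) and 37.7 FPKM (KO replicate 3), and the 8 smooth muscle markers to 2186 to 2460 FPKM against 2431, 871 and 225 FPKM. In the smooth muscle list the low sum of KO replicate 2 rests on Actg2, at 306 FPKM there and 1676 to 1911 FPKM in wild-type, while the median log2 difference over the list was -0.28, 0.06 and -3.30 in KO replicates 1, 2 and 3. No marker of these lists was at 0 in all libraries. Their part in the low values of Cldn1, Cldn11 and Cldn5 was not tested. The remaining lists stood at 0.65, 1.34 and 0.80 times wild-type for macrophages and leukocytes, with 6 of 8 markers averaging 1 FPKM or more and Cd68 at 62.6 FPKM in KO replicate 3 against 17.4 to 21.4 FPKM in wild-type. Their median log2 difference was -0.49, 0.26 and -1.36, lowest in KO replicate 3 as well. The sums stood at 0.65, 8.13 and 0.066 for adipocytes (1 of 5) and at 0.92, 1.20 and 2.59 for nerve and Schwann cells (3 of 5).

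**Figure D3:**
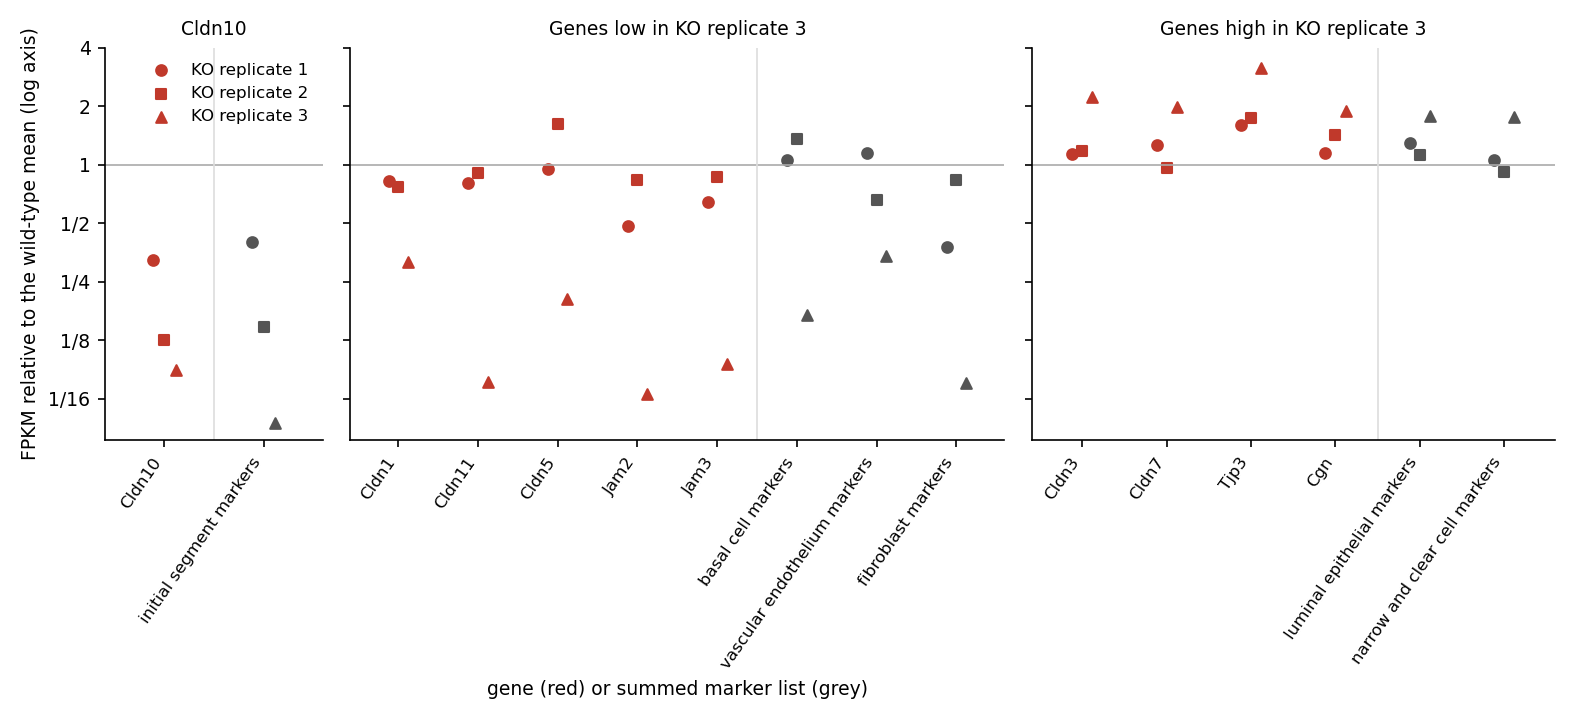
FPKM relative to the wild-type mean (y, log axis) in each KO library for selected tight junction genes (red) and for the summed FPKM of selected marker lists (grey). The genes of the middle and right panels were picked after their values were seen. The lists of sperm, smooth muscle, macrophages and leukocytes, adipocytes and nerve are not shown, and sperm markers had the same order as Cldn10. Cldn10 (0.32, 0.13, 0.088) and the initial segment markers (0.40, 0.15, 0.047) are lowest in KO replicate 3, as are the middle panel's genes and markers, while the right panel's are highest there.

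Cldn16 and Cldn6 were near the lower limit. Cldn16, a kidney claudin of magnesium handling, was at 1.95, 1.68 and 1.498 FPKM in the wild-type libraries against 1.14, 1.03 and 0.216 FPKM in the KO libraries. The KO libraries were all lower, but the last of these values rests on 3.90 normalized counts, and the log2 change of -0.63 ± 0.25 (SE, adjusted p = 0.276 by limma) is understated on this scale; it was -0.37 without KO replicate 3. Cldn6, a claudin of embryonic epithelia, was at 0.966, 0.973 and 0.943 FPKM against 0.895, 1.44 and 4.55 FPKM (log2 change 0.59, and 0.13 without KO replicate 3), and 111 normalized counts in KO replicate 3 stood against 22.9 to 23.6 in wild-type. Each of these genes passed the lower limit through 1 genotype only, Cldn16 through wild-type and Cldn6 through the KO, so a difference between the genotypes was built into the choice.

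The other 19 claudin rows were not tested. Of these, 10 were at 0 in all 6 libraries: Cldn13, Cldn17, Cldn24, Cldn34a, Cldn34b1, Cldn34b3, Cldn34b4, Cldn34c4, Cldn34d and Cldn34-ps. The remaining 9 were Cldn9, Cldn15, Cldn18, Cldn19, Cldn20, Cldn22, Cldn23, Cldn34b2 and Cldn34c1, and none was above 1.80 FPKM in any library. Just below the limit were Cldn34c1 at a mean of 0.899 FPKM and Cldn23 at 0.871 FPKM, and just above it were Cldn16 at 1.25 FPKM and Cldn6 at 1.63 FPKM. A listed 0 need not mean absence: Rpl26, a ribosomal protein gene that cells use widely, also has a 0 in 2 libraries. Cldn20 lies inside the span of Tfb1m, and no strand setting of the counting is known here, so its low values are uncertain. The same holds for reads at the end of Cldn3, which overlaps the lncRNA Wbscr25, and for the span of Cldn10, which the lncRNAs Gm52105, Gm41248 and Gm32382 overlap. Annotated lncRNAs also overlap the spans of Cgn, Cgnl1, Cldn14, Cldn19, Jam2, Jam3, Pard3 and Magi1, so the limit applies to these too.

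A share of the claudin pool is taken within 1 library and is not moved by a factor that scales the whole library. The summed FPKM of all claudins came to 1189.6, 1172 and 1180.5 for the wild-type libraries and to 1074, 998 and 1318 for the KO libraries. Cldn10 made up 14.2%, 13.3% and 13.3% of that sum in the wild-type libraries against 4.83%, 2.01% and 1.07% in the KO libraries. Cldn3 made up 15.7%, 16.2% and 16.1% in the wild-type libraries against 19.9%, 22.3% and 32.0% in the KO. Cldn7 made up 8.84%, 8.89% and 8.82% in the wild-type libraries against 12.3%, 10.1% and 15.8% in the KO. In these shares all KO libraries lay on one side of all wild-type libraries, but a lower share of 1 claudin raises those of the others. With Cldn10 left out of the sum, an alternative chosen after seeing the data, Cldn7 held 10.2% to 10.3% in the wild-type libraries against 12.9%, 10.3% and 15.98% in the KO libraries and overlapped, as its FPKM did. Cldn3 then held 18.2% to 18.7% against 20.9%, 22.8% and 32.3%, without overlap. Cldn2 then held 41.0% to 42.0% in the wild-type libraries against 37.5%, 39.4% and 31.5% in the KO libraries, lower without overlap. Cldn4 and Cldn14 overlapped. A higher share of Cldn3 in turn lowers those of the others. On the shares of the full sum, an exact two-sided permutation test gave p = 0.1 for Cldn10, Cldn3 and Cldn7, the smallest that 3 against 3 libraries allow, and 0.2 after adjustment over the 6 leading claudins tested. Cldn2 held 35.9 ± 0.47% in the wild-type libraries against 35.6%, 38.6% and 31.2% in the KO libraries (exact p = 0.8), and Cldn14 4.93 ± 0.42% against 5.43 ± 0.35% (exact p = 0.3; SD, n = 3). Cldn4 held 10.7% to 11.3% and 9.82% to 12.6% (exact p = 0.8). Together the 6 leading claudins made up 90.0% to 90.5% of the sum in the wild-type libraries against 91.1%, 89.2% and 95.2% in the KO libraries.

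**Figure D4:**
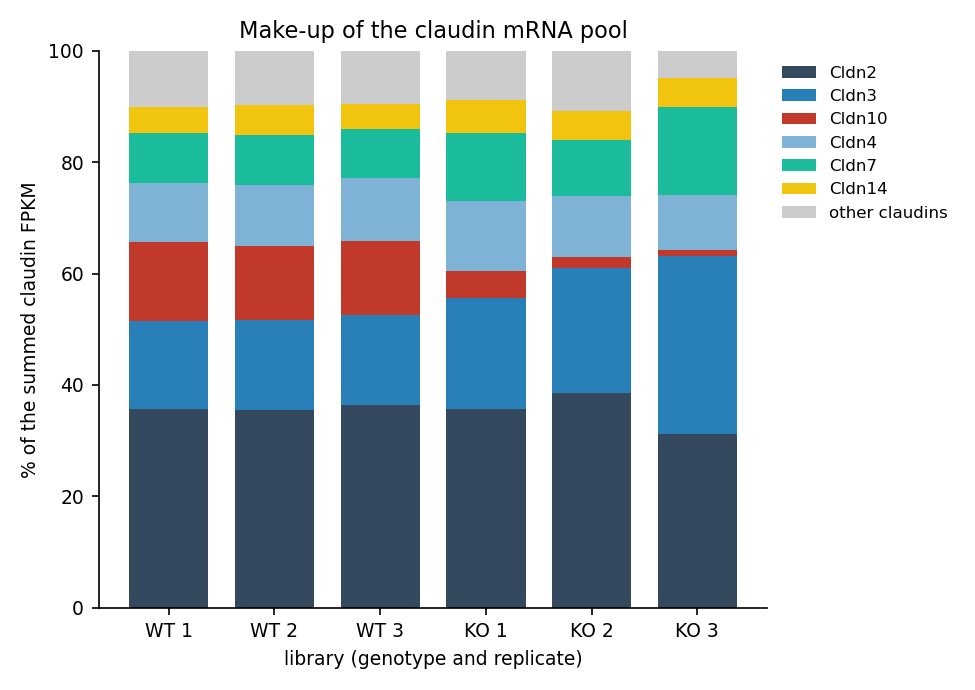
Share of the summed claudin FPKM in percent (y) held by each of the 6 leading claudins and by all others in each library (x). The red part, Cldn10, covers 13.3% to 14.2% in the wild-type libraries against 4.83%, 2.01% and 1.07% in KO replicates 1, 2 and 3, and the part of Cldn3 is largest in KO replicate 3, at 32.0%.

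Among the proteins that accompany claudins in the membrane, Marveld3 had higher values in all KO libraries. Marveld3, a MARVEL protein of the junction, was at 4.61, 4.44 and 4.38 FPKM in the wild-type libraries against 5.81, 6.73 and 7.71 FPKM in the KO libraries (log2 change 0.49 ± 0.12, SE, adjusted p = 0.158 by limma). Ocln, the gene of occludin, was at 13.2, 11.05 and 12.6 FPKM against 12.3, 15.7 and 18.3 FPKM, with KO replicate 1 inside the wild-type range and the other KO libraries above it. Its neighbour Marveld2, or tricellulin, which sits where 3 cells meet and lies 43238 bases away on chromosome 13, was at 8.67, 9.32 and 9.68 FPKM against 9.60, 8.58 and 12.9 FPKM. Marveld1 was at 16.3, 18.1 and 17.3 FPKM against 15.2, 20.2 and 13.6 FPKM, with KO libraries on both sides of wild-type.

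The angulins recruit tricellulin to cell corners. Lsr was at 42.4, 44.7 and 40.6 FPKM in the wild-type libraries against 53.5, 37.0 and 60.9 FPKM in the KO libraries, and Ildr1 at 27.2, 29.3 and 27.9 FPKM against 30.0, 21.3 and 25.5 FPKM. For both, KO replicate 2 was below wild-type and KO replicate 1 above it. The 95% interval of the log2 change was -0.25 to 0.68 for Lsr and -0.48 to 0.19 for Ildr1.

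The junctional adhesion molecules divided by gene. F11r, the epithelial JAM-A, was at 57.9, 55.7 and 53.4 FPKM in the wild-type libraries against 58.0, 54.9 and 73.8 FPKM in the KO libraries, with KO replicates 1 and 2 close to wild-type. Jam2, which is known from endothelium, was at 7.22, 6.75 and 7.36 FPKM against 3.45, 5.94 and 0.469 FPKM. Jam3, known from endothelium and from sperm, was at 6.33, 6.35 and 6.10 FPKM against 4.03, 5.39 and 0.592 FPKM. In both, all KO libraries were below wild-type, with KO replicate 2 nearest and KO replicate 3 farthest. The log2 change was -1.18 ± 0.54 for Jam2 and -0.97 ± 0.51 for Jam3 (SE, adjusted p = 0.322 and 0.36 by limma), and -0.54 and -0.36 without KO replicate 3.

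Relative to wild-type, Jam2 was at 0.49, 0.84 and 0.066 and Jam3 at 0.64, 0.86 and 0.095 in KO replicates 1, 2 and 3. The summed fibroblast markers stood at 0.38, 0.84 and 0.075 in the same libraries, and the summed vascular endothelial markers at 1.14, 0.66 and 0.34. Most of the endothelial sum was Egfl7 and Plvap. Plvap was at 34.8 to 39.4 FPKM in wild-type against 56.9, 13.1 and 11.2 FPKM in KO replicates 1, 2 and 3. The median log2 difference was 0.03, -0.16 and -2.37 over the endothelial list, and -1.40, -0.28 and -3.55 over the fibroblast list. Spermatid and sperm markers, 6 of 8 with a mean of at least 1 FPKM, stood at 0.18, 0.075 and 0.011. The part of these cells in the Jam2 and Jam3 values was not tested.

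**Figure D5:**
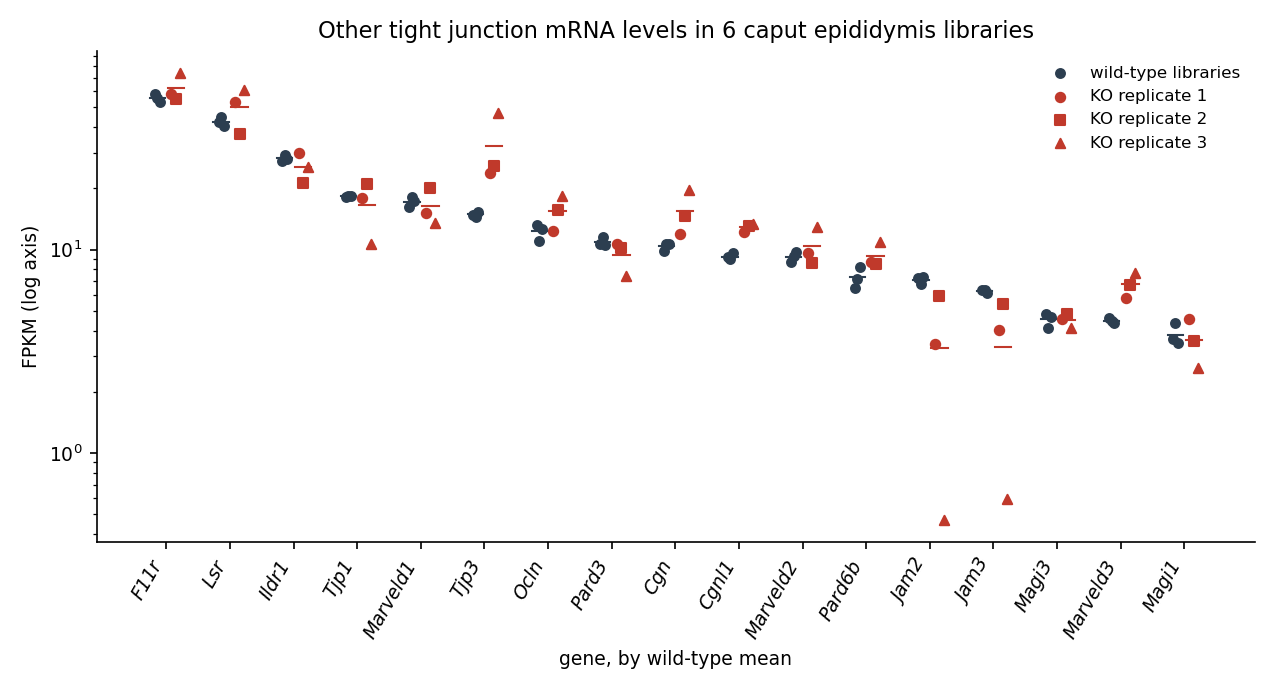
FPKM on a log axis (y) of 17 of the 18 tight junction genes that are not claudins (x, by wild-type mean) in each library, with a horizontal line at the mean of each genotype (n = 3). Tjp3, Cgn, Cgnl1 and Marveld3 lie higher in all KO libraries, and Jam2 and Jam3 lie lower, most in KO replicate 3 (0.469 and 0.592 FPKM).

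Of the cytoplasmic plaque, Tjp3 and both cingulins were higher in all KO libraries. Tjp3, which encodes the scaffold ZO-3 of epithelial cells, was at 14.9, 14.5 and 15.4 FPKM in the wild-type libraries against 23.8, 25.8 and 47.1 FPKM in the KO libraries. The KO mean was 2.16 times that of wild-type, and KO replicate 3 was farthest from it. The log2 change was 0.997 ± 0.26 (SE), with a 95% interval of 0.37 to 1.62 and an adjusted p of 0.164 by limma. Without KO replicate 3 the log2 change was 0.70 and the adjusted p 0.0143, the lowest of the 15 alternatives, whose highest was 0.559. The annotated end of Tjp3 (chromosome 10, 81273188 to 81291581) overlaps that of Apba3, which ends at 81273247, so reads there could be counted for either gene.

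Cgnl1, the gene of paracingulin, was at 9.17, 8.99 and 9.59 FPKM in the wild-type libraries against 12.2, 13.1 and 13.3 FPKM in the KO libraries. Its KO libraries lay close together and above wild-type (log2 change 0.44 ± 0.089, SE, 95% interval 0.22 to 0.65, adjusted p = 0.125 by limma). Without KO replicate 3 the log2 change was 0.41 and the adjusted p 0.044; the alternatives reached 0.549. Cgn, the gene of cingulin, which links the junction to actomyosin, was at 9.83, 10.6 and 10.7 FPKM against 11.9, 14.7 and 19.8 FPKM (log2 change 0.50 ± 0.18, SE, adjusted p = 0.244). The luminal epithelial markers, at 1.30, 1.12 and 1.78 times wild-type, stand beside 1.59, 1.73 and 3.16 for Tjp3, 1.31, 1.42 and 1.44 for Cgnl1 and 1.15, 1.41 and 1.90 for Cgn. Their part was not tested.

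Tjp1 and the MAGI scaffolds did not share this pattern. Tjp1 (ZO-1), a scaffold of most junctions, was at 18.1, 18.4 and 18.3 FPKM in the wild-type libraries against 17.9, 21.0 and 10.6 FPKM in the KO libraries, with KO replicate 3 low. Magi1, a membrane-associated scaffold, was at 3.49 to 4.37 FPKM in the wild-type libraries against 2.62 to 4.55 FPKM in the KO libraries, and Magi3 at 4.12 to 4.85 FPKM and 4.14 to 4.84 FPKM. The 95% interval of the log2 change was -0.77 to 0.39 for Tjp1, whose fitted change turned from -0.19 to 0.08 without KO replicate 3, -0.54 to 0.36 for Magi1 and -0.29 to 0.26 for Magi3.

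Of the polarity genes, Pard6b, which assembles the apical PAR complex, was at 6.49, 7.18 and 8.23 FPKM in the wild-type libraries against 8.72, 8.49 and 10.9 FPKM in the KO libraries, without overlap (log2 change 0.32 ± 0.14, SE, adjusted p = 0.297 by limma). Pard3, the scaffold of the same complex, was at 10.6, 11.6 and 10.6 FPKM against 10.7, 10.2 and 7.41 FPKM, with KO replicate 3 lowest.

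Genes that work with tight junctions but lie outside the symbol rule were counted in 4 lists, to be read against the 32.9% of all tested genes whose genotypes did not overlap (16.8% higher, 16.1% lower) and the 17.5% with an unadjusted p under 0.05. Of 13 tested transmembrane partners, 4 did not overlap (30.8%), 1 of them higher and 3 lower in the KO, and the median log2 change was -0.57, or -0.05, 0.02 and -1.63 in KO replicates 1, 2 and 3. The highest means over the 6 libraries were those of Tspan15 at 66.7 ± 4.50 FPKM in the wild-type libraries against 56.6, 69.6 and 141.9 FPKM in the KO libraries, and of Igsf5, a JAM family member, at 28.9 ± 1.24 and 35.3, 21.4 and 32.0 FPKM. Of 11 tested cytoplasmic scaffolds, 6 did not overlap, 1 higher and 5 lower, with a median of -0.23, or -0.12, -0.12 and -0.95 in KO replicates 1, 2 and 3. Ybx3, a ZO-1 partner, was at 45.6 ± 0.59 FPKM in the wild-type libraries against 56.6, 47.8 and 72.8 FPKM in the KO libraries, and Amot, an angiomotin, at 65.5 ± 1.71 FPKM and 73.5, 58.4 and 30.0 FPKM. Of 13 tested polarity proteins, 3 were higher and 3 lower without overlap, with a median of -0.08. The GTPase genes Cdc42 and Rhoa had the highest means over the 6 libraries, Cdc42 at 178 ± 4.01 FPKM in the wild-type libraries against 184.3, 159.7 and 162.5 FPKM in the KO libraries, and Rhoa at 181 ± 2.21 FPKM and 177.9, 154.6 and 138.7 FPKM. Nectin1 to Nectin4, Patj and Afdn were not analysed here. None of these 3 lists had a gene past the threshold by limma, and 1 of 13, 0 of 11 and 3 of 13 genes had an unadjusted p under 0.05.

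Among the 11 tested regulators of claudin function 1 gene passed the threshold by limma, against 0.25% of all tested genes. Wnk4, a kinase known to phosphorylate claudins and to control ion transport, was at 3.06, 3.44 and 3.54 FPKM in the wild-type libraries against 7.01, 8.44 and 8.19 FPKM in the KO libraries, a rise in all KO libraries (log2 change 1.03 ± 0.11, SE, adjusted p = 0.0438 by limma). It passed in 6 of 15 alternatives, with adjusted p from 0.0147 to 0.399. The call was lost without wild-type replicate 1, 2 or 3 (0.313, 0.399 and 0.378) and without KO replicate 2 (0.0875). It was also lost with a pseudocount of 0.1, a minimum of 5 FPKM, a weight per genotype, normalized counts and the replicate block, at 0.0621 to 0.235. Among the 11 tested genes of the list 7 had a positive change, and the median was 0.10. By limma 3 had an unadjusted p under 0.05, all higher in the KO, against 17.5% of all tested genes. The genotypes did not overlap for 3 (27.3%, against 32.9%), all higher in the KO. Epcam and Cdh1, in the lists of claudin regulators and of adherens junctions, are also luminal epithelial markers.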

How the data were processed

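Values were read from a table of 24346 genes with 1 column per library. It holds FPKM values and normalized counts, the latter a deposited signal and no longer whole numbers. Per the file headers, the authors had normalized both; by which method is not stated in these sources. The submitters' processing notes name TopHat2 2.1.1, Cufflinks 2.2.1 and mm10. Libraries were made with a stranded mRNA kit, per the labels' protocols; annotation, the strand setting of the counting and multi-mapping are unknown here. Genes and lists were chosen with earlier results of these data known, and motifs and the grouping of genes by likeness to markers after their values were seen.

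Genes averaging 1 FPKM or more were tested with limma 3.58.1 (R 4.3.3) on log2(FPKM + 1), two-sided, genotype as the only term, empirical Bayes with a mean-variance trend and Benjamini-Hochberg adjustment at 0.05. This scale understates changes of low genes. The test was checked on simulated data in which both genotypes had the same SD and no library stood apart. That check does not cover the wider spread of the KO here. Shares were tested by exact permutation (scipy 1.17.1). Genes were named if their mean was at least 10 FPKM, they passed the threshold, their log2 change was at least 1 in size or their genotypes did not overlap; Cldn5, Cldn6, Marveld2, Magi1 and Magi3 were named in addition. Of the tested genes, 1 is counted but not reported here by name. From each pathway list the genes past the threshold or, with none, the 2 most abundant are named. In total 11 marker lists and 6 pathway lists were used. Positions and promoters are from RefSeq GRCm38.p6, the mm10 build, matched by NCBI gene ID. Alternatives were a pseudocount of 0.1, no filter, a minimum of 5 FPKM, median of ratios, quantile normalization, a variance weight per genotype, no trend, normalized counts, the replicate number as a block and each library left out.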

Additional observations from a re-analysis of the deposited data

How the results depend on the processing

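Directions of the log2 changes of the 26 genes under the naming rule held in the 15 alternatives (14 for Jam3 and Cldn16, which a minimum of 5 FPKM removes) except for Cldn4 (0.02) without KO replicate 2, and for Tjp1, Marveld1 (0.03) and Cldn14 without KO replicate 3, where Cldn5, Marveld2 (-0.02), Magi1 (0.07) and Magi3 (0.04), named in addition, turned too; none was called. Tight junction genes past the threshold numbered 0, but 1 (Cldn10) with a weight per genotype and 0 to 3 when single libraries were left out. Over all genes the 32 calls became 16 with a pseudocount of 0.1, 101 without a filter, 17 with a minimum of 5 FPKM, 106 with quantile normalization, 67 with a weight per genotype and 6 with normalized counts, and 2 to 631 when single libraries were left out (2 without each wild-type library; of the KO, 541 without replicate 1, 17 without replicate 2, 631 without replicate 3); the cause was not tested. With the replicate block 1 gene was called. Same-numbered libraries share only a number: their deviations from the genotype means correlated at -0.11, 0.032 and 0.080. Measured in normalized counts, the share of Cldn10 in the claudin pool differed by -4.39 percentage points in place of -11.0, that of Cldn3 by 5.22 in place of 8.78 and that of Cldn7 by 2.24 in place of 3.88, since counts are not divided by length. With Cldn10 left out of the claudin sum, chosen after seeing the data, the differences were -5.44 for Cldn2 (-0.77 with it), -1.27 for Cldn4 (0.13) and -0.13 for Cldn14 (0.49), since the other shares no longer make up for that of Cldn10. When single libraries were left out, the difference in share ranged from -12.05 to -10.2 for Cldn10, 5.16 to 11.2 for Cldn3, 2.35 to 5.21 for Cldn7, -2.50 to 1.22 for Cldn2, -0.58 to 0.79 for Cldn4 and 0.30 to 0.73 for Cldn14. Ehf and Cdh16 passed without KO replicate 1. Planned count models on whole reads were not run, because whole reads were not recovered from the normalized counts. With 3 libraries per genotype and the wide spread of the KO, small differences could not be detected.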

Other observations

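Adherens junctions and desmosomes hold epithelial cells together below the tight junction. None of the 13 tested passed the threshold by limma, 2 had an unadjusted p under 0.05, and 5 did not overlap, 4 higher and 1 lower in the KO. Over all tested genes these shares were 17.5% and 32.9%. The highest means over the 6 libraries were those of Ctnnb1, the beta-catenin gene, at 249 ± 1.79 FPKM in the wild-type libraries against 250.6, 195.5 and 147.8 FPKM in KO replicates 1, 2 and 3, and of Cdh16, a kidney-type cadherin, at 116 ± 4.52 FPKM and 122.8, 190.4 and 201.5 FPKM (adjusted p = 0.268, range over the alternatives 0.0323 to 0.624).

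Of 14 tested transcription factors that act on epithelial genes, none passed by limma and 2 had an unadjusted p under 0.05. Without overlap, 3 were higher and 1 lower in the KO (28.6% in either direction, against 32.9% of all tested genes). The median log2 change was -0.05, or 0.05, 0.32 and -0.40 in KO replicates 1, 2 and 3. This list is mixed, as it also holds Snail, ZEB and Twist genes. In KO replicate 3, Snai1, Snai2, Twist1, Zeb1 and Zeb2 were at 0.0978 to 0.540 FPKM, against wild-type means of 1.69 to 3.295 FPKM. Grhl2, Klf4 and Klf5 were also below wild-type there, and Grhl1, Elf3, Elf5, Ehf, Ovol1 and Ovol2 were above it. The ETS family gene Ehf was at 37.8 ± 0.72 FPKM in the wild-type libraries against 41.7, 66.2 and 68.5 FPKM in KO replicates 1, 2 and 3 (adjusted p = 0.23, range 0.0178 to 0.608). Its relative Elf3 was at 83.1 ± 5.39 FPKM in the wild-type libraries against 87.4, 165.3 and 455 FPKM in the KO libraries, with KO replicate 3 far above the others (adjusted p = 0.337).

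Some claudins are close neighbours in the genome. Cldn1 and Cldn16 lie 91295 bases apart on chromosome 16, and Cldn8 lies 53847 bases from Cldn17, which was at 0 in all libraries while Cldn8 was at 31.3 ± 1.25 FPKM in wild-type. Cldn6 and Cldn9 lie 137 bases apart on chromosome 17. Cldn9 was at 0.677, 0.584 and 0.720 FPKM in the wild-type libraries against 0.423, 0.616 and 0.787 FPKM in the KO libraries, so in KO replicate 3 it was at 1.19 times the wild-type mean, where Cldn6 was at 4.74 times. Cldn9 was below the limit for testing, and its values rest on only 9.78 to 18.2 normalized counts per library.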
